A study of Rattus norvegicus with 12 samples.

Results

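Mitochondrial ribosomal protein (MRP) genes were taken as all genes whose array symbol starts with Mrpl or Mrps and a digit. This gave 73 of the 14217 genes with a single symbol on the array, 46 named for the large subunit and 27 for the small subunit, read by 97 of 31042 probe sets. The data were 12 Affymetrix Rat Genome 230 2.0 arrays, on which the study asked how rapamycin, an inhibitor of the kinase complex mTORC1, changed gene expression in a sensitive and a resistant hepatic cell line. WB-F344 is a non-tumorigenic, diploid epithelial line from the liver of an adult male Fischer rat, with a doubling time of 42 hr and labelled sensitive to rapamycin. WB311 arose from WB-F344 spontaneously, is tumorigenic, doubles in 15.5 hr and is labelled resistant. Both were grown in DMEM/F-12 with fetal bovine serum and received DMSO vehicle or 50 nM rapamycin for 24 hr, with 3 plates in each of the 4 groups. Each class of response was thus represented by 1 line, and what separates the lines in drug response cannot be told apart from whatever else separates them.

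The mitochondrial ribosome translates the few mRNAs of the mitochondrial genome, all of them for subunits of the respiratory chain and ATP synthase. Its rRNAs come from the mitochondrial genome, whereas all of its proteins are encoded in the nucleus, made in the cytosol and imported. Mammalian mitoribosomes have lost rRNA and gained proteins relative to bacterial ribosomes, so some MRPs have a bacterial counterpart and others do not. The symbol does not always give the place of the protein, since the products of Mrps18a and Mrps30 were found in the large subunit. The counts below go by symbol.

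Values are probe set intensities normalized with Robust Multiarray Average (RMA), and changes are differences of their log2. A gene entered a comparison when any of its groups averaged an intensity of 100 or more. It was called when limma gave an adjusted p under 0.05 and the change was at least 1.2-fold. All 73 MRP genes passed the intensity minimum in every comparison, with each gene represented by its brightest probe set. Intensities of different probe sets are not compared, as each probe set has its own brightness. The pair of WB-F344 arrays with the replicate number 2 differed from the remaining WB-F344 arrays, with a log2 difference between the 3′ and 5′ GAPDH control probes of 0.343 with vehicle and 0.166 with rapamycin against -0.124 to -0.0432 on the other 4. Results whose call or direction changed without them are given both ways. Of the markers of the source tissue, Krt8, a simple epithelial keratin, was bright in both lines (average intensity 2987 and 6103 with vehicle in WB-F344 and WB311), while Epcam, Cdh1, Alb and Hnf4a were under 100 in all 4 groups, and Krt7 averaged 5534 in WB-F344 and 76.5 in WB311 with vehicle. With vehicle or rapamycin, 2 of 6 epithelial, 1 of 7 hepatocyte, 5 of 5 mesenchymal, 0 of 3 endothelial and 1 of 4 leukocyte markers reached 100 in WB-F344, and 4, 1, 4, 1 and 1 of them in WB311. The levels behind these counts differed widely: with vehicle Col1a1 averaged 12835 in WB-F344 and 200.1 in WB311, Col3a1 12892 and 479.9, and Tagln 5478 and 76.9. Vim was closer, at 14708 and 11836.5. With rapamycin in WB-F344 the mesenchymal markers moved both ways. Col1a1 averaged 9023, Col3a1 6924 and Vim 13109, all lower than with vehicle, whereas Tagln averaged 7246 and Acta2 1075 against 981 with vehicle. Of the leukocyte markers, Cd14 averaged 1123 against 566 with vehicle, and Ptprc, Cd68 and Cd3e stayed under 100. The part of these shifts in the MRP results was not tested. Replicates were plates of 1 line, so p-values measure the spread between plates, and in bulk RNA fewer expressing cells and less RNA per cell cannot be told apart. The fit gave both lines 1 shared estimate of this spread for each gene, although WB-F344 plates varied more. The median SD over MRP genes was 0.078 and 0.071 in WB-F344 (vehicle and rapamycin) and 0.052 and 0.053 in WB311. Over all genes it was 0.129 and 0.113 against 0.071 and 0.059. The shared estimate thus tends to favour calls in WB-F344 over calls in WB311.

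In WB-F344 cells, 27 of the 73 MRP genes fell with rapamycin, 1 rose and 45 were not called. The fallen genes were 19 of the large and 8 of the small subunit, and the falls were modest, with no change larger than 0.61 on the log2 scale. The share that fell was 37.0%, against 17.2% of the 8223 genes tested, and the share that rose was 1.37%, against 7.71%. The median standard error was 0.065 over MRP genes and 0.088 over all genes. A change of a given size was thus called more readily in MRP genes, which limits the comparison of shares. The median log2 change was -0.19 over the MRP genes (-0.20 for the large and -0.17 for the small subunit) and -0.067 over all genes tested. A negative change was measured for 60 of the 73 MRP genes (82.2%) and for 60.7% of all genes. In each of the 28 genes called, the 3 rapamycin arrays did not overlap with the 3 vehicle arrays, as was so for 94.4% of all genes called lower and 95.7% of those called higher. Without both arrays numbered 2, 28 MRP genes fell and none rose. The split depended on the scaling: with cyclic loess normalization between arrays 15 fell and 3 rose, and the median was -0.107 against -0.0020 over all genes. It also depended on the arrays that set the spread. With only the WB-F344 arrays in the fit 18 fell and 0 rose, and with only the WB311 arrays 5 fell and 1 rose in WB311.

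**Figure D1:**
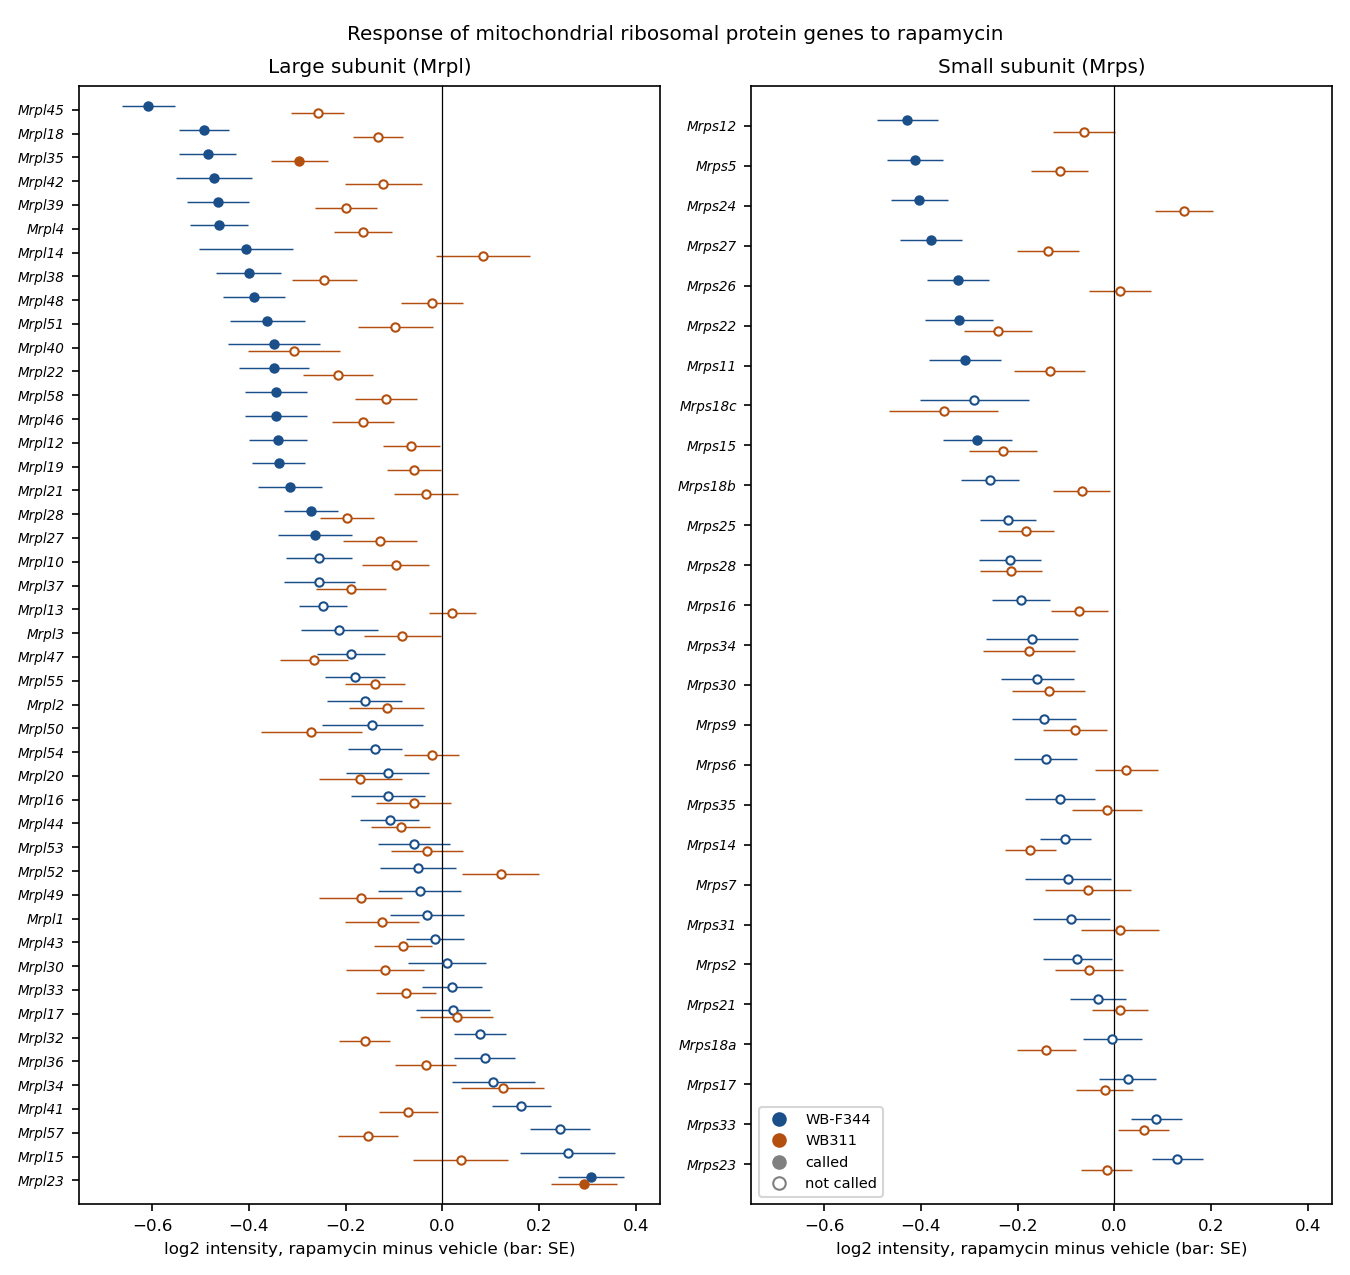
Log2 change in intensity with rapamycin for each of the 73 MRP genes in WB-F344 (blue) and WB311 (orange) cells, with the standard error as a bar; filled points were called. In WB-F344, 60 of 73 points lie below 0 and 27 of them are called, whereas in WB311 as many lie below 0 but 1 is called. Over all genes tested, the share called lower was also smaller in WB311 (2.35%) than in WB-F344 (17.2%). With only the arrays of the line itself in the fit, 18 MRP genes were called lower in WB-F344 and 5 in WB311.

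The largest fall was that of Mrpl45, whose product lies near the exit of the peptide tunnel and holds the ribosome at the inner membrane. Its intensity was 1003, 1066 and 1061 with vehicle and 683, 708 and 663 with rapamycin in WB-F344, a log2 change of -0.61 (SE 0.055, adjusted p = 3.52e-05, limma) or 1.52-fold lower. The gap between the groups was several times the spread within them. In WB311 it was 1140, 1055 and 1135 with vehicle and 924, 924 and 935 with rapamycin, a change of -0.26 (adjusted p = 0.0261, limma) that stayed below the 1.2-fold minimum by a small margin. The groups did not overlap in WB311 either, although the drop was smaller.

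The promoter of Mrpl45 is shown because it carries letters of the NRF1 core, the motif of a nuclear factor known for its role at genes of mitochondrial biogenesis. Promoters were taken from RefSeq (build GRCr8) as 250 bases before to 50 bases after the start of the gene, on the strand of the gene. Capitals mark matches on either strand to the NRF1 core CGCANGCG, the ETS core CCGGAAG, the YY1 core ATGGCGG or the SP1 core GGGCGG. The Mrpl45 window, chr10:82804789-82805088 on the plus strand, held the NRF1 core at positions 23 and 107 and none of the other motifs. It is not typical of the genes that fell in WB-F344, as 20.0% of their windows held this core, against 30.8% for the other MRP genes. A part of NRF1 in the fall was not tested.
Mrpl45: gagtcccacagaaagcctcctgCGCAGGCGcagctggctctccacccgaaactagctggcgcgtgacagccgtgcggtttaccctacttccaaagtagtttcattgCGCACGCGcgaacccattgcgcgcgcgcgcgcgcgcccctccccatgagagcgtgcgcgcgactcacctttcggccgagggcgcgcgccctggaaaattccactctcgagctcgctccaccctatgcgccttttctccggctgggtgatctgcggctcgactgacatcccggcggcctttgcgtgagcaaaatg

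Among other proteins of the large subunit, Mrpl18, whose relatives in other ribosomes bind 5S rRNA, gave intensities of 2250, 2185 and 2321 with vehicle and 1572, 1666 and 1566 with rapamycin in WB-F344. This was a change of -0.49 (SE 0.052, adjusted p = 8.83e-05, limma), and the groups were well apart. Mrpl35 stood at 1205, 1205 and 1238 with vehicle and at 912, 869 and 828 with rapamycin, a change of -0.48 (SE 0.058, adjusted p = 0.0002, limma). Mrpl42 changed by -0.47, Mrpl39 by -0.46 and Mrpl4, a protein of the wall of the peptide tunnel, by -0.46. Mrpl38 and Mrpl48, both proteins of the central protuberance, fell by 0.40 and 0.39 on the log2 scale. Mrpl12, which takes part in the flexible stalk where translation factors bind, fell by 0.34 on the log2 scale (SE 0.060, adjusted p = 0.00189, limma), and this call was lost with cyclic loess. Mrpl58 (also known as Ict1), a peptidyl-tRNA hydrolase built into the ribosome that releases stalled chains, changed by -0.34 (adjusted p = 0.00268, limma), also lost with cyclic loess.

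In the small subunit the leading falls were those of Mrps12, a protein of the decoding centre, and Mrps5. Mrps12 had intensities of 1884, 1729 and 1889 with vehicle and 1438, 1335 and 1317 with rapamycin in WB-F344, a change of -0.43 (SE 0.064, adjusted p = 0.000713, limma). Mrps5 had 611, 634 and 598 with vehicle and 467, 465 and 453 with rapamycin, a change of -0.41 (SE 0.058, adjusted p = 0.000529, limma). In both genes every rapamycin array was below every vehicle array. Mrps24, Mrps27, Mrps26, Mrps22, Mrps11 and Mrps15 made up the other falls of the small subunit, with changes of -0.40 to -0.28. The calls of Mrps26, Mrps22, Mrps11 and Mrps15 were lost with cyclic loess, and that of Mrps15 also without both arrays numbered 2.

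Mrps11 and Mrpl46 lie head to head, so that their promoter windows share 267 bases and read on opposite strands. Both fell in WB-F344. Mrps11 had intensities of 687, 631 and 701 with vehicle and 555, 547 and 528 with rapamycin (change -0.31, SE 0.074, adjusted p = 0.0103, limma). Mrpl46 had 572, 566 and 590 with vehicle and 455, 453 and 455 with rapamycin (change -0.34, SE 0.064, adjusted p = 0.00268, limma). Both calls were lost with cyclic loess, where the changes were -0.22 and -0.26. In WB311 neither was called, with changes of -0.13 and -0.16. The pair is shown as an example of members with a shared start region: the Mrps11 window (chr1:142117014-142117313, plus strand) held none of the 4 motifs, and the Mrpl46 window (chr1:142116981-142117280, minus strand) held the YY1 core at position 278, in the bases beyond the shared stretch.
Mrps11: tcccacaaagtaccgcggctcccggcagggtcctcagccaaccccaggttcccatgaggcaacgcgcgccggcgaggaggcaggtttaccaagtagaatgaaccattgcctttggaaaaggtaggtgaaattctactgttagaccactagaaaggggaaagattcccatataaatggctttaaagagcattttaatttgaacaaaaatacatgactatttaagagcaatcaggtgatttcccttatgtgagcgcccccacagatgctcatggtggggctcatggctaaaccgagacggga
Mrpl46: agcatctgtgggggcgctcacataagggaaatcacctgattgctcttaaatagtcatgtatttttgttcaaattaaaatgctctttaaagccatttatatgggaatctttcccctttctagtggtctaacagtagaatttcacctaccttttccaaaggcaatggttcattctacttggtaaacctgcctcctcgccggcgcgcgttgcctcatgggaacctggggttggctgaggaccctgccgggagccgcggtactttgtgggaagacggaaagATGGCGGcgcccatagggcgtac

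Mrpl23, a protein at the tunnel exit, was the only MRP gene called higher with rapamycin, and it was called in both lines. In WB-F344 it had 1561, 1293 and 1479 with vehicle and 1838, 1779 and 1731 with rapamycin, a change of 0.31 (SE 0.068, adjusted p = 0.00708, limma). In WB311 it had 876, 899 and 891 with vehicle and 1085, 1109 and 1071 with rapamycin, a change of 0.29 (SE 0.068, adjusted p = 0.0394, limma). The groups did not overlap in either line, and the WB-F344 vehicle array numbered 2 was the lowest of its group. Without that array, and without both arrays numbered 2, the WB-F344 call was lost. The WB311 call was lost without any 1 of the 6 WB311 arrays, with adjusted p-values of up to 0.147. The promoter window of Mrpl23 (chr1:207116680-207116979, plus strand), printed beside this departure from the common direction, held the ETS core at position 184 and the SP1 core at position 51.
Mrpl23: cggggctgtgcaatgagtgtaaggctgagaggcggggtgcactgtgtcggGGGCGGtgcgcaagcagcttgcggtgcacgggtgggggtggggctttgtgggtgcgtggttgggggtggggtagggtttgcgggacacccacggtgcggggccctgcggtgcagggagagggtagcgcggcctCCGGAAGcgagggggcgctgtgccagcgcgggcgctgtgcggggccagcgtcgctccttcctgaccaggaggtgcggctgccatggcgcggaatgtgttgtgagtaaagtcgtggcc

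In WB311 cells, 2 of the 73 MRP genes passed the test: Mrpl23 rose, and Mrpl35 fell from 1184, 1226 and 1208 to 923, 1004 and 1023 (change -0.30, SE 0.058, adjusted p = 0.0198, limma). These were 1.37% in each direction, against backgrounds of 1.91% of genes called higher and 2.35% called lower. The count was sensitive to the fit: 5 were called (1 higher, 4 lower) by the test the methods name or without the WB-F344 arrays numbered 2, and 6 (1 higher, 5 lower) with only the WB311 arrays, with the fold change filter first or with the replicate block. The Mrpl35 call, like that of Mrpl23, was lost without any 1 of the 6 WB311 arrays and with no filter on intensity. The measured changes nevertheless lay mostly on the negative side. They were below 0 in 60 of 73 MRP genes (82.2%) against 49.1% of all genes, and their median was -0.097 against 0.0032 over all genes tested. At an unadjusted p under 0.05 there were 25 MRP genes in WB311 (34.2%, against 20.6% of all genes) and 44 in WB-F344 (60.3% against 42.2%). Mrpl50 was not called by its brightest probe set (change -0.27) but was called lower by its other one (-0.37).

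The level of the MRP genes as a set was also read on each array, as the median over genes of the log2 level relative to the mean of the gene over 12 arrays. In WB-F344 it was 0.099, 0.031 and 0.073 with vehicle and -0.094, -0.13 and -0.18 with rapamycin. In WB311 it was 0.080, 0.097 and 0.19 with vehicle and -0.052, -0.0045 and -0.031 with rapamycin. The vehicle and rapamycin arrays did not overlap within either line, for all MRP genes and for each subunit taken alone. Over all genes above the minimum, the same measure ranged from -0.092 to 0.081 in WB-F344 and from -0.0066 to 0.042 in WB311.

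**Figure D2:**
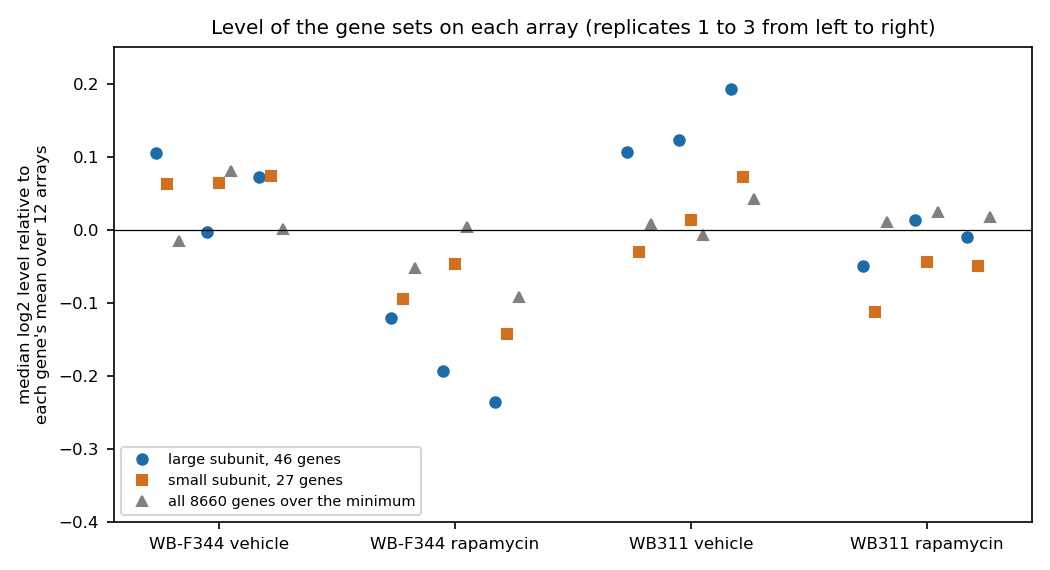
Median log2 level of the large subunit genes (circles), small subunit genes (squares) and all genes above the intensity minimum (triangles) on each of the 12 arrays, relative to the mean of each gene over the arrays. In both lines, the circles and squares of the 3 rapamycin arrays lie below those of the 3 vehicle arrays.

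The rapamycin changes of the 2 lines come from separate arrays. Over the 73 MRP genes they correlated with r = 0.43 (0.49 over 46 large and 0.28 over 27 small subunit genes), against 0.23 over 7719 genes tested in both, as a description in which the points of a line share the same 6 arrays. The change was negative in both lines in 52 MRP genes (71.2%) and in 35.4% of all genes. It was the more negative in WB-F344 in 52 of 73 MRP genes (71.2%) and in 61.4% of all genes.

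When the difference itself was tested, the effect of rapamycin differed between the lines in 11 MRP genes. In 10 of them (13.7%, against 8.66% of all genes) the change was higher in WB311, meaning a smaller fall or none, and in 1 (1.37%, against 3.87%) it was lower. The median difference over MRP genes, 0.065, was close to that of all genes, 0.061. It was 0.092 against 0.060 without both arrays numbered 2, and -0.018 with cyclic loess, where 3 MRP genes were called higher and 2 lower. Mrps24 and Mrpl18 were called under every setting tried and without any 1 array. The other 9 calls were lost in at least 1 of these.

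Mrps24, which forms part of the path by which mRNA enters the small subunit, gave the largest difference. Its intensity in WB-F344 was 2935, 2881 and 2911 with vehicle and 2232, 2262 and 2110 with rapamycin, a change of -0.40 (SE 0.060, adjusted p = 0.000713, limma). In WB311 it was 1533, 1577 and 1697 with vehicle and 1704, 1867 and 1741 with rapamycin, a change of 0.14 (adjusted p = 0.233, limma). Every WB311 rapamycin array was thus above every WB311 vehicle array, but narrowly (1704 against 1697), and no rise was called. The difference of the 2 effects was 0.55 (SE 0.086, adjusted p = 0.00274, limma). The lines therefore stood 1.82-fold apart with vehicle and 1.24-fold apart with rapamycin. Only 1 of the 2 probe sets of Mrps24 passed the intensity minimum, so these values rest on that 1.

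Mrpl18 stood at 2282, 2254 and 2180 with vehicle and 2075, 2051 and 2001 with rapamycin in WB311, a change of -0.13, and the difference from its fall in WB-F344 was 0.36 (SE 0.075, adjusted p = 0.0115, limma). Mrpl45 differed by 0.35 (SE 0.079, adjusted p = 0.0173, limma), a call lost without WB311 rapamycin replicate 3 (adjusted p = 0.0501, limma). Mrpl14, which is known to bind an assembly factor of the large subunit, had 426, 349 and 402 with vehicle and 333, 279 and 277 with rapamycin in WB-F344. In WB311 it had 360, 383 and 428, then 406, 414 and 418, with overlapping groups. Its difference, 0.49 (SE 0.14, adjusted p = 0.0470, limma), was large but poorly determined. Mrps12, Mrpl48, Mrps26, Mrps5, Mrpl19 and Mrpl13 differed by 0.27 to 0.37, with changes in WB311 between -0.11 and 0.02.

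Mrpl57 went the other way. It had 872, 791 and 886 with vehicle and 1023, 987 and 1006 with rapamycin in WB-F344, and 605, 619 and 668, then 569, 583 and 549 in WB311. Rapamycin arrays were thus above vehicle arrays in WB-F344 and below them in WB311, although the changes of 0.24 and -0.15 were not called in either line. The WB-F344 change (adjusted p = 0.0143, limma) missed only the 1.2-fold minimum, at 1.18-fold. The WB311 change had an adjusted p of 0.223 (limma). The difference was -0.40 (SE 0.089, adjusted p = 0.0174, limma), and it was lost without WB311 rapamycin replicate 3 (adjusted p = 0.0532, limma). The second probe set of Mrpl57 gave a difference of -0.12, not called, and line differences of -0.012 with vehicle and -0.13 with rapamycin, against -0.43 and -0.83 by the brightest, so that its probe sets disagree in size. Its promoter window (chr15:36086207-36086506, plus strand), shown as that of the single member with this pattern, held the NRF1 core at positions 166 and 234, the ETS core at 222 and the SP1 core at 154 and 158, the last pair overlapping.
Mrpl57: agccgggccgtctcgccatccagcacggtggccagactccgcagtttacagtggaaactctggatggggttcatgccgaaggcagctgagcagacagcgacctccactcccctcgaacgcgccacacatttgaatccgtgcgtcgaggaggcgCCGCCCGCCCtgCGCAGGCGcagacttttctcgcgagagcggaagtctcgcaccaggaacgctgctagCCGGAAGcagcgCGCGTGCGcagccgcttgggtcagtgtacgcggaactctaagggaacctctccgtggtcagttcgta

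**Figure D3:**
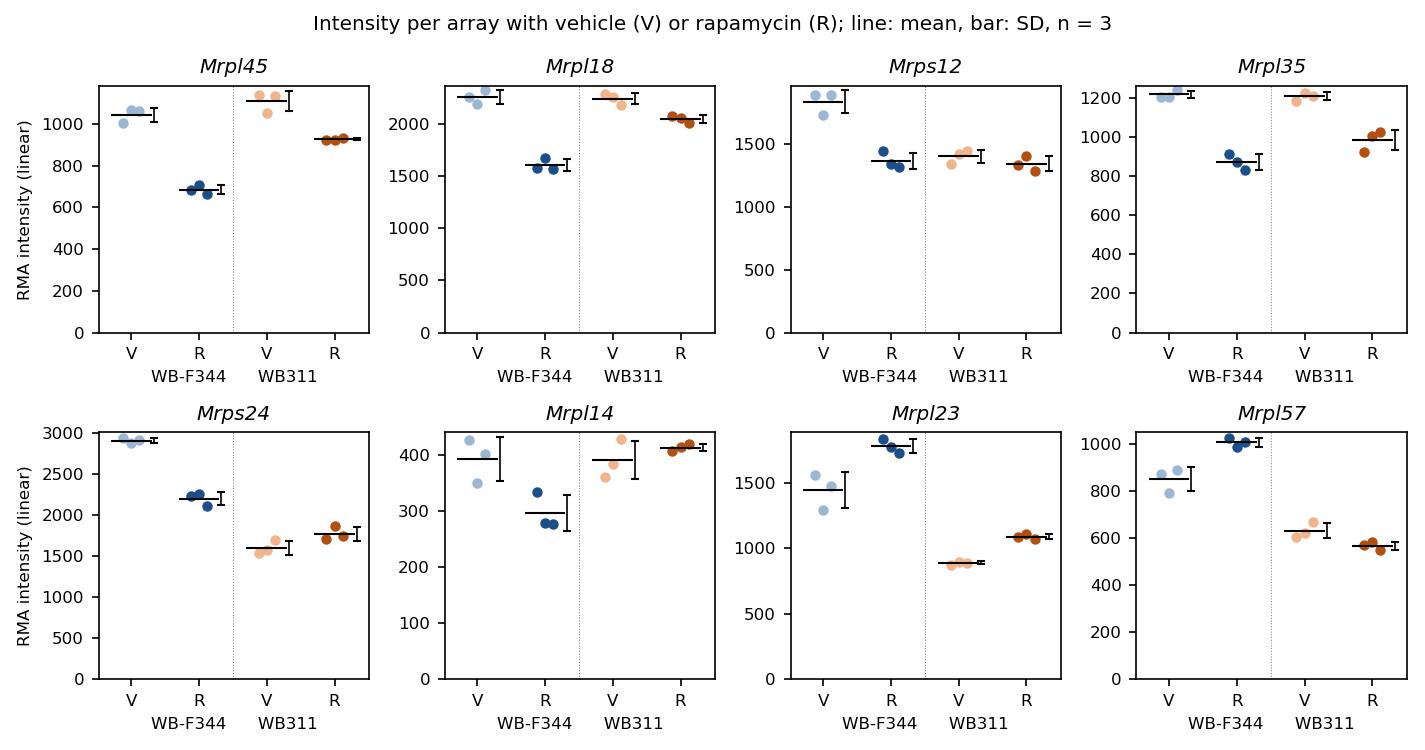
RMA intensity on each array (points, n = 3 a group) with the mean (line) and SD (bar) for 8 MRP genes in WB-F344 and WB311 cells with vehicle (V) or rapamycin (R). Mrpl45, Mrpl18 and Mrpl35 drop in WB-F344 and by less in WB311, where Mrpl35 alone of them is called. Mrps12 drops in WB-F344, with overlapping groups in WB311. Mrps24 and Mrpl14 drop in WB-F344 and show no drop in WB311, Mrpl23 is higher with rapamycin in both lines, and Mrpl57 moves in opposite directions.

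Between the lines, the MRP genes differed in both directions. With vehicle, 18 were higher in WB311 (12 large, 6 small) and 15 lower (8 large, 7 small), which is 24.7% and 20.5% against 27.8% and 28.7% of all 8522 genes tested. The median difference was 0.024 over MRP genes and 0.0026 over all genes. Without the WB-F344 vehicle array numbered 2 the balance turned, with 16 higher and 17 lower and medians of 0.0033 and 0.031. With other single arrays left out, the MRP median was 0.011 to 0.065. With rapamycin, 25 were higher (18 large, 7 small) and 13 lower (7 large, 6 small), which is 34.2% and 17.8% against 33.9% and 26.8% of 8557 genes. The median then was 0.14 over MRP genes (0.20 for the large and 0.029 for the small subunit) and 0.058 over all genes, or 0.056 over MRP genes with cyclic loess. Without the arrays numbered 2, 27 were higher and 14 lower.

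These line differences reached larger sizes than the rapamycin effects. Mrpl50 was the gene highest in WB311, with 540, 405 and 490 in WB-F344 and 1054, 1106 and 1084 in WB311 with vehicle, a difference of 1.19 (SE 0.11, adjusted p = 2.45e-06, limma) or 2.27-fold. Its second probe set gave 1.23. Mrps22, a small subunit protein with no bacterial counterpart, was higher by 0.74, Mrpl58 by 0.65, Mrpl44 by 0.63 and Mrps28 by 0.62. Mrpl53 was the lowest in WB311, with 1344, 1195 and 1322 in WB-F344 and 572, 588 and 642 in WB311, a difference of -1.10 (SE 0.074, adjusted p = 2.53e-07, limma) or 2.14-fold lower. Mrps6 had 1572, 1610 and 1526 in WB-F344 and 716, 722 and 805 in WB311, a difference of -1.07 (SE 0.066, adjusted p = 1.12e-07, limma). For all 3 genes the lines were far apart on every array. Mrps34 (-0.88), Mrps24 (-0.86), Mrpl23 (-0.70) and Mrpl34 (-0.56) followed among the genes lower in WB311.

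The windows of the genes farthest apart between the lines are given for comparison. That of Mrpl50 (chr5:68668038-68668337, minus strand) held the YY1 core at position 280. That of Mrpl53 (chr4:117172793-117173092, plus strand) held the ETS core at positions 195 and 235, the SP1 core at 241, where it overlaps the second ETS match, and the YY1 core at 255.
Mrpl50: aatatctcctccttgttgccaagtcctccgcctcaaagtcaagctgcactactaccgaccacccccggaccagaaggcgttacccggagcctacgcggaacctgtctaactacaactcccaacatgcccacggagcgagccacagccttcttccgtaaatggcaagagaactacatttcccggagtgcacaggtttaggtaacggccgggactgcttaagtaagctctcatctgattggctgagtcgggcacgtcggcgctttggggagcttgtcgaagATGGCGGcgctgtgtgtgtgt
Mrpl53: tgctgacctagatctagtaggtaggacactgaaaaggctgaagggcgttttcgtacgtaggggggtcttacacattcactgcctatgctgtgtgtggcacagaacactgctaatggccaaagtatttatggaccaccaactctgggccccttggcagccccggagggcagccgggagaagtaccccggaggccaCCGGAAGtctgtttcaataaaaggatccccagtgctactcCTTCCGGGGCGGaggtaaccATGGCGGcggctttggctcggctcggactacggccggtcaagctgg

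The differences with vehicle and with rapamycin come from separate arrays, and they correlated with r = 0.91 over the 73 MRP genes and 0.96 over 8419 genes, again as a description over genes of shared arrays. Of the MRP genes, 15 were called higher in WB311 in both settings, 12 lower in both, and 0 in opposite directions. These shares of 20.5%, 16.4% and 0% stood beside 24.7%, 22.8% and 0.368% of all genes tested in both. With rapamycin, Mrpl50 (1.06), Mrpl58 (0.88), Mrps22 (0.82) and Mrpl39 (0.81) were the highest in WB311, and Mrpl53 (-1.07), Mrps6 (-0.90), Mrps34 (-0.89) and Mrpl57 (-0.83) the lowest.

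**Figure D4:**
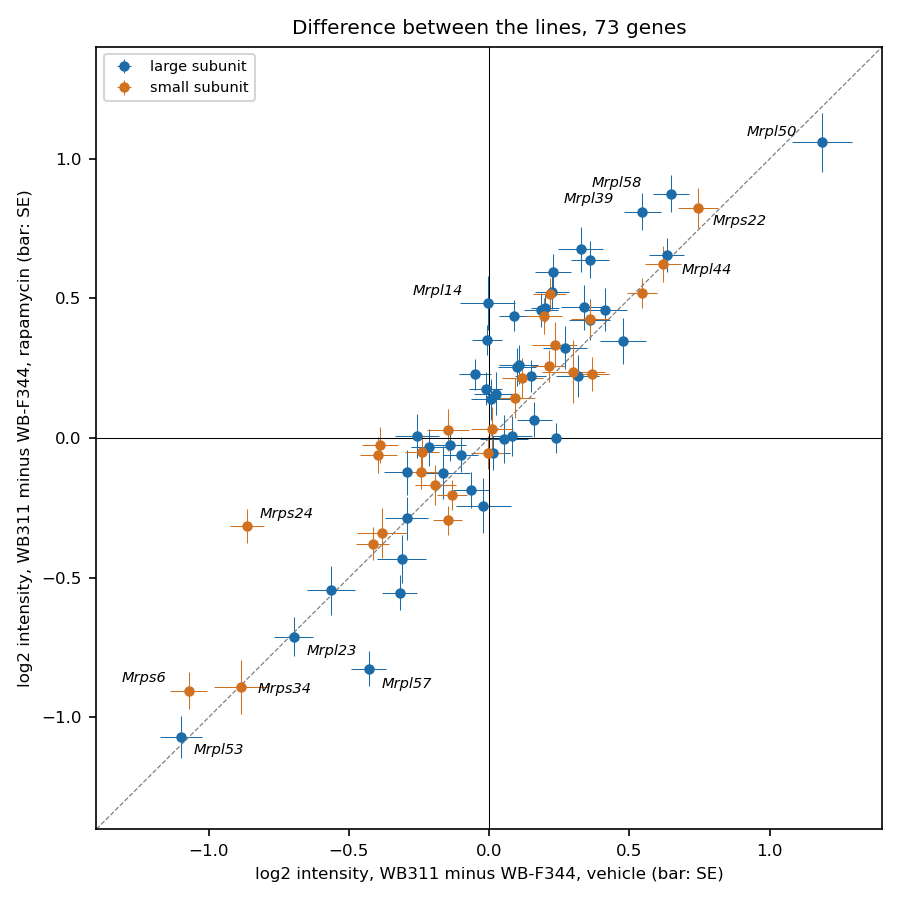
Log2 difference in intensity between WB311 and WB-F344 for the 73 MRP genes with vehicle (horizontal axis) and with rapamycin (vertical axis), with standard errors as bars; the dashed line marks equal differences. The points spread along the dashed line from Mrpl53 to Mrpl50, and Mrps24, Mrpl14 and Mrpl57 are among those off it.

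Across the 59 MRP genes whose promoter the RefSeq table held, the NRF1 core was found in 16 windows (27.1%, against 10.5% of 19005 protein-coding genes), the ETS core in 20 (33.9% against 11.2%), the YY1 core in 13 (22% against 6.39%) and the SP1 core in 30 (50.8% against 43.1%). The median GC content was 56.0% and 55.3%. In the 20 windows of genes that fell in WB-F344 these shares were 20.0%, 30.0%, 20.0% and 45%, and in the other 39 they were 30.8%, 35.9%, 23.1% and 53.8%. Among these windows, no motif was more frequent in the genes that fell than in the other MRP genes. They cover 20 of the 27 genes that fell, and the counts are small. Of the genes that fell, Mrpl19, Mrpl21, Mrpl35, Mrpl38, Mrps12, Mrps22 and Mrps24 were not in the table.

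For 18 MRP genes the array held several probe sets, and in 13 of them for WB-F344 and 14 for the other comparisons 2 or more were tested. None of these was called in opposite directions. The changes had the same sign in 10 of 13 genes with rapamycin in WB-F344, in 11 of 14 in WB311, in 9 of 14 for the difference of effects and in 12 of 14 for each comparison of the lines. Mrpl40 fell in WB-F344 by both probe sets (-0.35 and -0.42), but between the lines with vehicle its brightest gave -0.17, not called, and the other 0.49, called higher. Its changes in WB311 also disagreed, with -0.31 by the brightest and 0.027 by the other, neither called. In the difference of effects the brightest gave 0.042, not called, and the other 0.44, called higher. Counted by any probe set, 12 MRP genes were called in that comparison. For this gene the line difference, the change in WB311 and the difference of effects are uncertain.

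Genes that work with the MRPs were read from lists in the same fits, against the same background of 17.2% of genes called lower in WB-F344. Of 5 mitoribosomal proteins with other names, Gadd45gip1 fell in WB-F344 (-0.45, adjusted p = 0.000268, limma) and the others, Dap3 among them, were not called. Of 23 genes tested for ribosome assembly and rRNA modification, 6 fell in WB-F344 and 0 rose, with Noa1 (a GTPase of small subunit assembly, -0.60), Rpusd4 (a pseudouridine synthase, -0.50) and Mrm2 (an rRNA methyltransferase, -0.40) among them. Of 12 mitochondrial translation factors, 3 fell and 0 rose, led by Tufm, the elongation factor Tu (-0.35, adjusted p = 0.000688, limma). Of 10 genes of mitochondrial transcription and DNA maintenance, 2 fell, Polg (-0.38) and Slirp (-0.28). The medians of these lists in WB-F344 were -0.18, -0.11, -0.11 and -0.039, beside -0.067 over all genes. The shares called lower were 20%, 26.1%, 25% and 20% in the same order, near the background. In WB311, 0 of the 52 genes tested from these 4 lists were called, where 1.91% of all genes were called higher and 2.35% lower.

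Of 7 nuclear regulators tested, Myc, Esrra and Gabpa rose in WB-F344 and Pprc1, a coactivator of the NRF factors, fell (-0.36). Of all genes tested there, 7.71% were called higher and 17.2% lower. Myc, a transcription factor known to drive ribosome and mitochondrial biogenesis, had 306, 333 and 296 with vehicle and 861, 858 and 824 with rapamycin in WB-F344 (change 1.44, adjusted p = 7.93e-07, limma). In WB311 it had 1098, 1104 and 1219 with vehicle and 1585, 1587 and 1671 with rapamycin (change 0.50, adjusted p = 0.00267, limma). In both lines Myc was higher on every rapamycin array than on any vehicle array, and it was the only gene of the 5 lists called in WB311. A part of Myc in the MRP changes was not tested. The change of Myc differed between the lines by -0.94 (SE 0.092, adjusted p = 0.000252, limma), and those of Esrra by -0.49, Pprc1 by 0.34, Tfb2m by -0.38 and Rpusd4 by 0.55. For this difference, 1 of the 7 regulators was called higher and 2 lower, and 2 of the 52 genes of the other 4 lists were called (3.85%). Of all genes, 8.66% were called higher and 3.87% lower. Between the lines with vehicle, Myc (1.87), the methyltransferase Nsun4 (1.63), the GTPase Gtpbp10 (1.55) and Polg (1.34) were higher in WB311, and Aurkaip1, a small subunit protein (-0.73), was lower. In that comparison 5 of the 7 regulators were called higher and 0 lower. Of the 52 genes of the other 4 lists, 22 were called (42.3%). Of all genes, 27.8% were called higher and 28.7% lower.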

How the data were processed

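The authors hybridized total RNA from WB-F344 and WB311 plates (50 nM rapamycin or vehicle, 24 hr) to 12 Affymetrix Rat Genome 230 2.0 arrays. They deposited linear intensity values after Robust Multiarray Average (RMA) normalization, the software version of which is not given in the sources used here. RMA is known to compress the changes of dim probe sets. Log2 was taken here. Array medians of intensity were 59.5 to 62.9. The number of arrays, 3 in a group, limits the precision. Arrays from other lines were not used here.

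The file held 31099 probe sets, 57 of them controls, which were left out. Among the remaining 31042, GEO's platform annotation assigned a single symbol to 20826 (14217 genes), several symbols to 436 and none to 9780. Symbols of 0 MRP genes differed in RefSeq. All 12 arrays were fitted as 4 groups in R 4.3.3 with limma 3.58.1, with variances moderated over the probe sets tested. Tests covered probe sets averaging 100 or more in any group compared, and calls needed a Benjamini-Hochberg adjusted p under 0.05 over all of them and a change of at least 1.2-fold. The background shares are over genes, each read by its probe set of highest mean log2 intensity. The fit was tested on simulated data.

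Genes named are up to 10 called rises and 10 called falls per comparison whose arrays do not overlap, every MRP gene called in the difference of effects or in WB311, and up to 3 called genes of each list per comparison with the smallest p. Other genes named, Mrpl12, Mrpl46, Mrps11 and Mrpl40 among them, were chosen after their values were seen, and not all that the rule selects are described. The MRP genes, the lists and the rule were chosen with earlier results of these data known. Alternatives were other scalings, filters, tests, sets of arrays, and a replicate block.

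In WB-F344, plates of the same number deviated together across probe sets (r of 0.561 to 0.871). Plates 1 and 3 also correlated across numbers (0.581 and 0.605), so the numbers cannot be read as pairs from this. The reported fit used no pairing, and the replicate number entered only as a block in the alternative fit of each comparison. In WB311 the same-number r was -0.139 to -0.000258, and between the lines -0.265 to 0.198.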

Additional observations from a re-analysis of the deposited data

Results flagged for a closer look

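The change with rapamycin differed between WB-F344 and WB311 by limma's test of the difference itself (WB311 minus WB-F344, log2) in 11 MRP genes. The difference was 0.5471 for Mrps24, 0.4883 for Mrpl14, 0.3677 for Mrpl48, 0.365 for Mrps12, 0.3597 for Mrpl18 and 0.3495 for Mrpl45. It was 0.3354 for Mrps26, 0.2993 for Mrps5, 0.2796 for Mrpl19 and 0.2672 for Mrpl13, and it was -0.3969 for Mrpl57. Of these, Mrps24 and Mrpl18 kept their calls in all settings tried and without any 1 array. Mrpl57 was lost only without WB311 rapamycin replicate 3 (adjusted p = 0.0532, limma), and Mrpl45 only without that array (0.0501) and with no filter on intensity. The other 7 were lost with no filter, with cyclic loess and without several single arrays. The GAPDH 3′ to 5′ difference of the arrays numbered 2 in WB-F344 was high with vehicle and with rapamycin, and without both of these arrays 15 MRP genes were called, 14 higher and 1 lower. The part of RNA quality in these differences was not tested.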

How the results depend on the processing

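No MRP gene changed sign under the alternatives tried in a comparison in which it was called. This does not cover changes that were not called. Of the counts, WB311 against WB-F344 with vehicle turned from 18 higher and 15 lower to 16 and 17 without WB-F344 vehicle replicate 2, with or without the rapamycin array of that number, and its median from 0.024 to 0.0033. For rapamycin in WB-F344 (28 called), 18 were called with cyclic loess (3 higher, 15 lower) and 18 with only the 2 groups compared (0 higher, 18 lower), and 26 to 29 with single arrays left out. Of the 28 calls, 13 were kept in all settings and 23 without any 1 array. With no fold change minimum the count was 36. For rapamycin in WB311 (2 called), this became 0 when dim probe sets were kept (no filter), 5 with the t-test of the methods, 5 without both WB-F344 arrays numbered 2, and 6 each with the fold change filter before the adjustment and with only the 2 groups compared. It was 0 to 1 with single arrays left out. For the difference of effects (11 called), it was 3 with no filter, 5 with cyclic loess (3 higher, 2 lower), 16 with the fold change filter first and 3 to 12 with single arrays left out: 3 without WB311 rapamycin replicate 3, and 4 without WB-F344 rapamycin replicate 3, WB311 vehicle replicate 1 or 2, or WB311 rapamycin replicate 2. For the lines, 50 were called with vehicle and no fold change minimum (33 with it) and 50 with rapamycin (38 with it). With single arrays left out these were 30 to 33 and 38 to 41. The cause of these shifts was not tested. Fits with arrays left out also rest on a smaller number of arrays. The median over MRP genes of the difference of effects was 0.065 as reported, -0.018 with cyclic loess and 0.096 with median centring.

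With the replicate number as a block, the pairing moved the WB311 count to 6 and the difference of effects to 16 (15 higher, 1 lower). The counts were 29 in WB-F344 (1 higher, 28 lower) and 33 and 38 between the lines, within 1.5 times those without the block. The median standard error of the change of an MRP gene in WB-F344 was 0.065 on the log2 scale, which limits what these arrays can resolve.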
